A study of Pomacea canaliculata with 36 samples.

Results

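Of 12066 genes that averaged at least 5 CPM (read counts relative to the library's total) in the intact eye stalk of the apple snail *Pomacea canaliculata*, 81 were still at or below 25% of that level 28 days after amputation with no overlap between the libraries of the 2 groups. They were chosen by 3 conditions on CPM scaled by TMM factors (edgeR's trimmed mean of M-values). The mean of the 4 Intact libraries was at least 5 CPM, the mean of the 4 libraries at 28 days was at most 25% of it, and the highest library at 28 days lay below the lowest Intact library. The Intact and 28-day values are therefore how the genes were found, and the distance between those groups is given without a test. The series holds 36 RNA sequencing libraries of polyadenylated RNA in 9 groups of 4, namely intact stalks and amputated stalks at 1, 3, 6, 9, 12, 15, 21 and 28 days post amputation (dpa). The submitters' design text has a group at day 7 where the libraries are labelled day 6, and the labels were followed. The labels give neither the age, the sex nor the strain of the snails, nor whether a library is 1 animal or a pool, so a p-value here reflects differences among libraries that need not be differences among animals. Total counts lay between 21797015 and 32928737 per library.

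The eye of this snail sits at the tip of a stalk and is of the camera type, with a cornea, a lens and a cup-shaped retina that holds photoreceptors and pigment. After the tip is cut off, the wound closes, cells divide at the stump, and the parts of the eye form again. The cut removes the mature eye, and the stump must make its cell types anew. In a bulk library, fewer cells of a type and less RNA per cell cannot be told apart. The genes are given by locus identifiers, as the gene table used here holds no product names. No function is therefore attached to any of them, and the eye stalk label could not be checked against marker genes.

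The set is small against the rest of the stalk's genes. At 28dpa 91 genes, 0.754% of the 12066, had means at or below 25% of Intact, and 10 of these were left out because a 28dpa library reached into the Intact range. The closest of the 10 was LOC112569372, whose highest 28dpa library, at 2.84 CPM, just passed its lowest Intact library, at 2.77 CPM. Just inside was LOC112557398, with its highest 28dpa library at 6.21 CPM and its lowest Intact library at 7.81 CPM. The fold threshold fell between LOC112563702, at 24.4% of Intact and inside, and LOC112566934, at 25.1% and outside. The abundance threshold fell between LOC112573412, at 5.19 CPM in Intact, and LOC112566644, at 4.80 CPM. In Intact 29 of the 81 genes had 100 CPM or more, 40 had 10 to 100 CPM, and 12 had less. Their spread between Intact libraries was wider than usual for such genes, with a median coefficient of variation of 18.1% against 9.77% over the 12066. The same libraries helped to choose the genes, so this is a description. The median over the set stood at 117% of the Intact mean in Intact replicate 1 and at 85.3% in replicate 4.

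A pair of early libraries held more of some of these genes than the others of their group. Summed over the 81 genes, 3dpa replicate 1 was the highest of its group, at 973 CPM, but 1dpa replicate 2 was not. The latter held 1328 CPM, against 1784 CPM in replicate 4 and 1477 CPM in replicate 1. At 1dpa replicate 2 was the highest library for 39 of the 81 genes, and at 3dpa replicate 1 for 43. By that count Intact replicate 1 (52 genes), 15dpa replicate 1 (49) and 28dpa replicate 1 (45) stood higher still, and the early pair differs from them in the size of the excess. Outside the set, 1459 other genes were at or below 25% of Intact at 1dpa. Of those, 33.8% were highest in 1dpa replicate 2 and 24.5% in 3dpa replicate 1. For replicate 1 of Intact, 15dpa and 28dpa these shares were 52.1, 36.3 and 42.2%. Replicate 2 of 1dpa was at least 3-fold above the mean of the other 3 libraries in 18 genes, replicate 1 of 3dpa in 17, and 10 genes were in both lists. In each of the remaining libraries such an excess was seen in 0 to 5 genes. The part of these libraries in each result was not tested. Recounts with both left out, a choice made after seeing the data, gave 13 genes higher and 19 lower at 3dpa than at 1dpa, in place of 12 and 20. They gave 22 higher and 7 lower at 6dpa than at 3dpa, in place of 16 and 7, and 59 higher and 8 lower at 21dpa than at 1dpa, in place of 62 and 7. Shares over all genes were not counted in these refits, so the recounts describe the set only.

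Together the 81 genes took 3.51 ± 0.386% of the Intact counts (mean ± SD over the 4 libraries) and 0.129 ± 0.0210% at 1dpa. The share was lowest at 6dpa, at 0.0773 ± 0.00328%. It was 0.113 ± 0.0109% at 9dpa and 0.253 ± 0.0299% at 12dpa. The later shares were 0.310 ± 0.0385% at 15dpa, 0.276 ± 0.0254% at 21dpa and 0.431 ± 0.0353% at 28dpa. No library after amputation came near the lowest Intact library, at 3.12%, although for 28dpa the choice of genes required low levels. The 3 genes with the most reads made up 50.4% of the set's CPM in Intact, 0.861% at 6dpa and 40.1% at 28dpa. The median over genes, in which each gene counts once, is therefore given next.

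That median fell to 1.85% of the Intact mean at 1dpa and was 1.67% at 3dpa and 2.68% at 6dpa. From there it went to 4.30% at 9dpa and 8.80% at 12dpa. For 15, 21 and 28dpa the median was 10.05, 11.2 and 17.8%. The genes thus came most of the way to their 21-day level by 12dpa. As a ratio the quartiles over genes came closer on the way, from 0.602 and 6.98% at 1dpa to 8.57 and 14.7% at 21dpa. In percent points the distance between them was about the same at both times. Over all 12066 genes the median stayed between 97.3 and 104% at every time. At 1dpa 73 of the 81 genes were at or below 25% of Intact, where 12.7% of all genes were. The corresponding numbers were 75 genes at 3dpa (7.75% of all genes), 76 at 6dpa (5.25%) and 76 at 9dpa (3.29%). For 12dpa they were 75 (2.77%), for 15dpa 80 (2.42%) and for 21dpa 77 (1.51%). Since the Intact libraries helped to choose the genes, these counts describe the set and support nothing further.

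**Figure D1:**
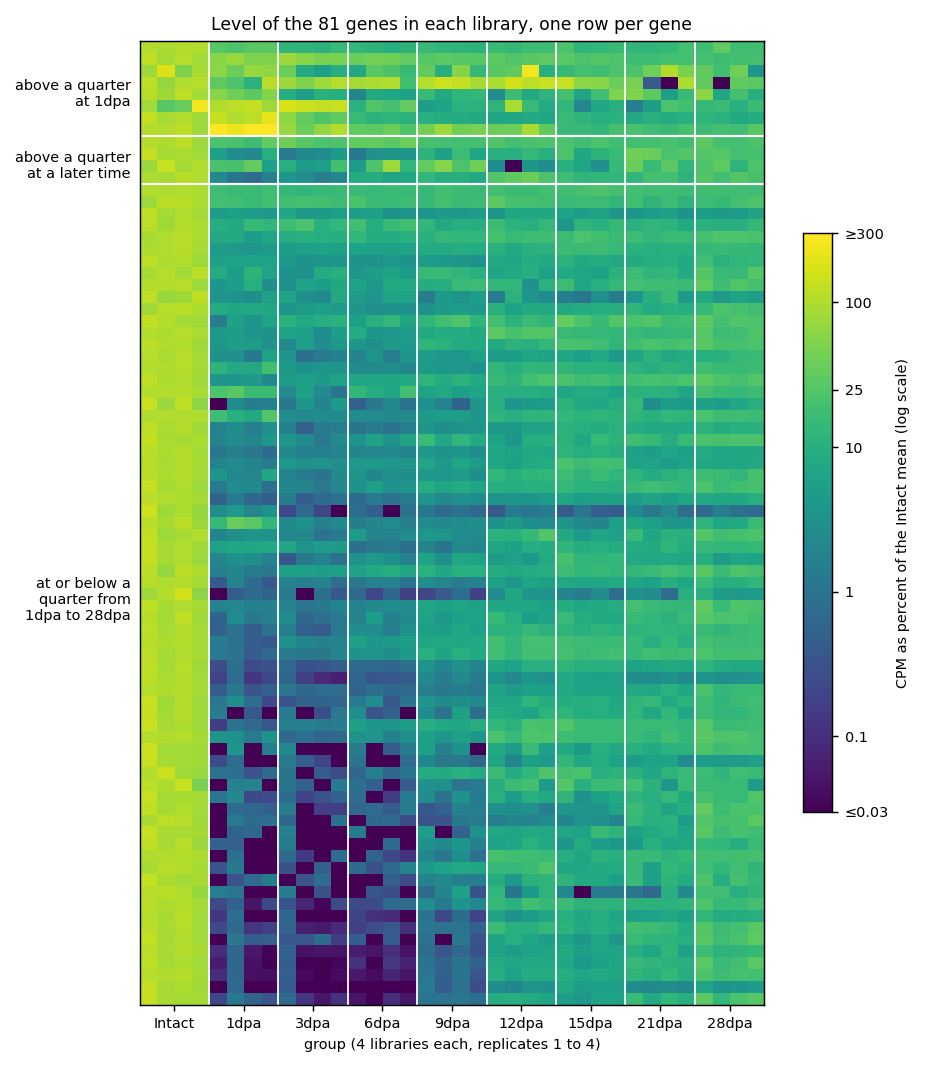
Level of each of the 81 genes (rows) in each of the 36 libraries (columns, 4 per group), as percent of the gene's Intact mean on a log color scale. The 69 genes of the lower block stayed at or below 25% in every group after amputation; in its lower rows the darkest cells lie at 1, 3 and 6dpa, where 1dpa replicate 2 and 3dpa replicate 1 are lighter than the columns beside them.

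The set can be laid beside the other genes that were low at 1dpa. Apart from this set, 1459 genes with an Intact mean of at least 5 CPM were at or below 25% of it at 1dpa. Their median level at 1, 6, 12, 21 and 28dpa was 13.5, 41.7, 47.5, 69.4 and 74.3% of Intact. The 73 genes of the set that were also at or below 25% at 1dpa stood at 1.46, 2.32, 8.52, 10.8 and 17.4% at the same times. The 2 groups shared that limit but not the level at 1dpa, where the median of the 73 was already far lower. The 28dpa level split these groups and the 1dpa level defined both, so the gap at 28dpa is fixed by the choice of genes, rises from 1dpa are favoured in the 1459, and no test is given.

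**Figure D2:**
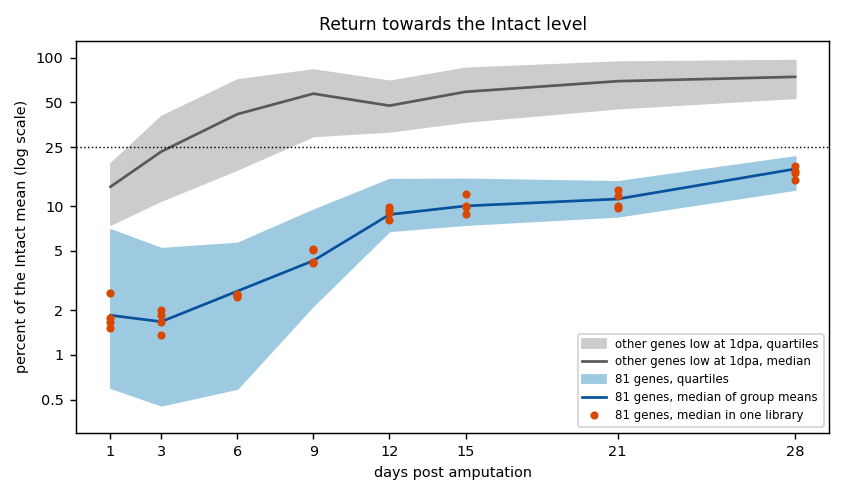
Median level as percent of the Intact mean (log axis) against days post amputation, with the band between quartiles over genes, for the 81 genes and for 1459 other genes at or below 25% of Intact at 1dpa; points are the median over the 81 genes in single libraries, and the dotted line marks 25%. The 4 libraries of a group lie close together, and the median of the 81 genes passes from 4.30% at 9dpa to 8.80% at 12dpa and only to 11.2% by 21dpa.

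When the genes moved was tested between neighbouring time points from 1dpa to 21dpa, in libraries the choice of genes did not use. The main rises came between 6dpa and 12dpa. From 6dpa to 9dpa 40 of the 81 genes rose, against 9.22% of the 17341 genes tested, and 3 fell, against 8.97% (edgeR quasi-likelihood test, Benjamini-Hochberg adjusted p below 0.05). From 9dpa to 12dpa 45 rose and 1 fell, against 15.6% and 12.1% of all genes. The set's shares of rises were thus 49.4 and 55.6%. Of the 1459 other genes low at 1dpa, 38.7% rose and 2.67% fell from 6dpa to 9dpa. From 9dpa to 12dpa 26.2% of those rose and 25.2% fell. The median log2 fold changes of the set in these steps were 0.87 and 0.99, and those of all genes 0.01 and 0.01. Of the called rises in the set, 28 were 2-fold or more from 6dpa to 9dpa and 34 from 9dpa to 12dpa. Rises of that size were not counted over all genes. The single fall, LOC112572886, went from 2.72 ± 1.03 to 0.168 ± 0.120 CPM, and 2 genes were called lower without 9dpa replicate 2 or 4, or without 12dpa replicate 3.

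Before 6dpa the movement was mixed. From 1dpa to 3dpa 12 genes of the set rose and 20 fell, against 29.9% and 26.5% of all genes, and from 3dpa to 6dpa 16 rose and 7 fell, against 15.4% and 15.6%. The set's shares of rises were 14.8 and 19.8%. The 1459 other genes low at 1dpa rose far more often in these steps, in 62.9 and 56.9%, and fell in 3.36 and 1.03%. Their choice by a low 1dpa level favours the first of these rises. When only the 8 libraries of 1dpa and 3dpa were fitted, 13 genes of the set fell in place of 20.

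After 12dpa the set moved about as often as genes in general from one time point to the next. From 12dpa to 15dpa 10 rose and 11 fell, against 11.7% and 14.9% of all genes, and from 15dpa to 21dpa 6 rose and 6 fell, against 5.55% and 5.63%. The 11 falls became 7 without 12dpa replicate 3 and 6 without 15dpa replicate 2 or 4, and the 6 rises became 3 without 15dpa replicate 2. Across the whole span from 12dpa to 21dpa, a comparison added after the data had been seen, 11 genes rose and 7 fell, the falls being 4 without 12dpa replicate 3, against 19.3% and 20% of all genes. Of the 1459 other genes low at 1dpa, 24% rose and 7.81% fell to 15dpa, and 14.9% rose and 1.99% fell from there to 21dpa. Over the span from 12dpa to 21dpa 42.5% of those rose and 4.11% fell. In the set, the first called rise was the step to 3dpa in 12 genes, to 6dpa in 11, to 9dpa in 26 and to 12dpa in 14. It came later in 4, and 14 genes had no called rise in any of the 6 steps. First rises were not counted over all genes, so these numbers describe the set only.

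Over the net span from 1dpa to 21dpa 62 of the 81 genes rose and 7 fell, against 39.8% and 34.7% of all genes, and 12 were not called. Among the 1459 other genes low at 1dpa, 98.4% rose and 0 fell. The median log2 fold change was 2.53 in the set and 2.55 in those 1459. They were chosen by a low 1dpa level, which favours rises from it. By group means, 69 genes of the set stayed at or below 25% of Intact at every time. Another 8 were still above 25% at 1dpa and fell later. The last 4 were low at 1dpa and passed 25% at some time before 28dpa without reaching 50%. Of the 69, 60 rose from 1dpa to 21dpa, 2 fell and 7 were not called. Of the 8, none rose and 5 fell, a direction that their high 1dpa level and the limit on 28dpa nearly fix.

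The 3 genes with the most reads were nearly lost and then rose late and in part. LOC112576458 stood at 11409.7, 7733, 8410.5 and 6998 CPM in Intact replicates 1 to 4. At 1dpa its libraries held 2.22, 59.8, 1.45 and 0.312 CPM, and at 3dpa 37.3, 0.648, 0.326 and 0.274 CPM, so 1 library of each group held nearly all of it. At 6dpa it was at 1.77, 0.687, 2.17 and 0.554 CPM, and at 9dpa at 111, 38.3, 80.5 and 22.6 CPM, every library above all those of 6dpa. The log2 fold change between those times was 5.59 ± 1.22 (SE; adjusted p = 0.00187, edgeR). Its 12dpa libraries held 249, 181, 299.9 and 291 CPM, those of 15dpa 693, 439, 477 and 468 CPM, and those of 21dpa 226, 199, 244 and 191 CPM. The 15dpa libraries were all above those of 12dpa and 21dpa, but neither step passed the test (adjusted p = 0.453 and 0.405, edgeR). At 28dpa it was at 574, 309, 317 and 442 CPM, 4.75% of Intact. It had thus risen more than 100-fold from its lowest mean and was still further below Intact than most of the set.

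LOC112563139 and LOC112571947 were also nearly lost up to 6dpa, but their means did not drop from 15dpa to 21dpa. LOC112563139 was at 4886, 4573, 4856 and 4052 CPM in Intact, 4.57, 29.1, 2.04 and 1.98 CPM at 1dpa, and 2.57, 1.83, 3.56 and 2.22 CPM at 6dpa. It then rose in both of the steps from 6dpa to 12dpa, by log2 3.77 ± 0.737 (SE; adjusted p = 0.000631, edgeR) and 3.49 ± 0.682 (SE; adjusted p = 0.000303, edgeR). It reached 464, 287, 419 and 397 CPM at 12dpa, 424, 319, 351 and 333 CPM at 15dpa, 562, 441, 627 and 422 CPM at 21dpa and 1021, 794, 868 and 844 CPM at 28dpa. The 28dpa libraries were all above those of 21dpa, at 19.2% of Intact on average. That they lay below the Intact libraries was a condition of the choice of genes. LOC112571947 went from 4225, 3242, 3776 and 3419.9 CPM in Intact to 2.28, 1.87, 3.86 and 1.75 CPM at 6dpa, 235, 181, 223 and 253 CPM at 12dpa, 298, 187, 237 and 241 CPM at 15dpa, 348, 247, 448 and 213 CPM at 21dpa and 617, 419, 458 and 528 CPM at 28dpa, 13.8% of Intact. For these 3 genes the fold from 1dpa to 21dpa hangs on 1dpa replicate 2. The log2 fold change of LOC112576458 was 3.78 ± 1.05 (SE; adjusted p = 0.00197, edgeR) with it and 7.29 without it, that of LOC112563139 5.79 ± 0.767 (SE; adjusted p = 9.13e-08, edgeR) and 7.47, and that of LOC112571947 5.32 ± 0.728 (SE; adjusted p = 1.61e-07, edgeR) and 7.05. All 3 were called either way.

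**Figure D3:**
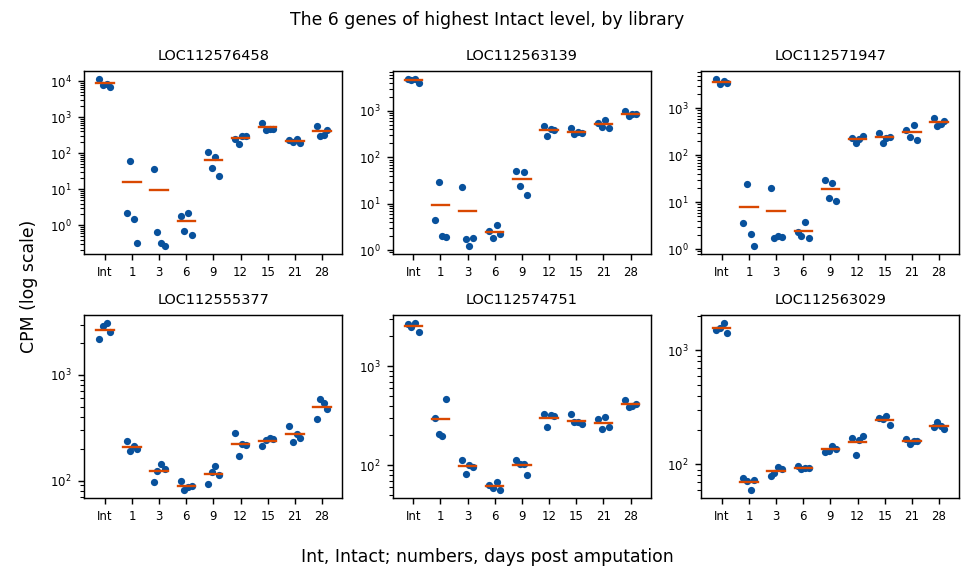
CPM on a log axis in each library (points, replicates 1 to 4 from left to right) with group means (bars) for the 6 genes with the most reads in Intact. In the upper row 1 library at 1dpa and 1 at 3dpa stand more than 4-fold above the others for LOC112576458, LOC112563139 and LOC112571947, and no library after amputation reaches Intact in any of the 6 genes.

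The next genes by reads never fell so far. LOC112555377 went from 2183, 2905, 3081 and 2560.4 CPM in Intact to 236, 191, 211 and 201 CPM at 1dpa and 99.0, 81.5, 87.0 and 89.1 CPM at 6dpa, falling in both early steps. It was back at 282, 171, 224 and 216 CPM at 12dpa, a rise from 9dpa of log2 0.96 ± 0.143 (SE; adjusted p = 8.08e-06, edgeR), and at 383, 589, 546 and 476 CPM at 28dpa. Its level at 21dpa was above that of 1dpa by log2 0.43 ± 0.142 (SE; adjusted p = 0.00749, edgeR), a call lost without 1dpa replicate 2 (adjusted p = 0.0553). LOC112574751 dipped in the same way, from 293 ± 127 CPM at 1dpa to 61.8 ± 5.09 at 6dpa, and stood at 303 ± 40.0 at 12dpa and 269 ± 36.8 at 21dpa (SD, n = 4), against 2519 ± 221 in the Intact libraries. From 1dpa to 21dpa it was not called, with a log2 fold change whose 95% interval ran from -0.44 to 0.28. At 28dpa it held 455, 389, 392 and 418 CPM, every library above those of 21dpa.

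LOC112563029 rose more evenly, from 75.4, 71.1, 59.7 and 72.4 CPM at 1dpa to 253, 250.0, 264 and 222 CPM at 15dpa, and then fell back to 168, 152, 160.3 and 159 CPM at 21dpa, with no overlap between the groups compared. The fall from 15dpa was log2 -0.62 ± 0.0913 (SE; adjusted p = 5.58e-05, edgeR). It had 1557 ± 132 CPM in the Intact libraries and 217 ± 11.9 at 28dpa. LOC112559820 was at 998 ± 162 CPM in the Intact libraries, 35.0 ± 3.92 at 6dpa and 137 ± 27.2 at 28dpa. LOC112560377 was one of the 6 genes that rose from 15dpa to 21dpa. It held 995, 733, 816 and 712 CPM in Intact, 14.3, 9.11, 9.84 and 15.4 CPM at 3dpa, 56.9, 47.7, 55.7 and 47.3 CPM at 9dpa, 74.3, 60.4, 67.9 and 72.6 CPM at 15dpa and 159, 127, 112 and 109 CPM at 21dpa. The rise from 15dpa to 21dpa, log2 0.89 ± 0.174 (SE; adjusted p = 0.00137, edgeR), put every 21dpa library above every 15dpa library.

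The genes furthest below Intact at 28dpa were LOC112562198, LOC112560581, LOC112576458, LOC112572559, LOC112564740 and LOC112557531, between 0.990 and 5.87% of it. LOC112562198 held 24.7, 13.0, 15.2 and 11.03 CPM in Intact. It held 0.479, 0.687, 0.317 and 0.521 CPM at 1dpa, 0.0386, 0.114, 0.0326 and 0 CPM at 3dpa and 0.121, 0.244, 0.148 and 0.120 CPM at 28dpa, the last from 16 counts in 4 libraries. It fell from 1dpa to 3dpa by log2 -3.30 ± 0.590 (SE; adjusted p = 1.74e-05, edgeR). No later step was called, so a return was not detectable at this depth.

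LOC112560581 rose and then lost part of the rise. LOC112560581 went from 421, 328, 361 and 294 CPM in Intact to 2.15, 1.26, 1.39 and 1.601 CPM at 6dpa and 29.7, 22.1, 20.5 and 21.3 CPM at 15dpa. It was at 10.1, 8.98, 10.998 and 8.71 CPM at 21dpa, below every 15dpa library, a step of log2 -1.26 ± 0.324 (SE; adjusted p = 0.0125, edgeR). At 28dpa it stood at 12.2, 10.8, 11.1 and 13.3 CPM. LOC112572559, at 15.7 ± 4.402 CPM in the Intact libraries, had 1.43 ± 0.481 at 15dpa and 0.745 ± 0.270 at 21dpa, a difference that did not pass the test (adjusted p = 0.184, edgeR). LOC112557531 fell from 12dpa to 15dpa and rose to 21dpa, with 0.210, 0.153, 0.417 and 0.184 CPM at 15dpa and 0.524, 1.32, 2.21 and 0.616 CPM at 21dpa, against 13.6 ± 3.73 CPM in the Intact libraries. It was called higher at 21dpa than at 1dpa, and lost that call without any one of 1dpa replicates 1, 2 and 3 and 21dpa replicates 2 and 3.

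Some genes dropped and then kept within a narrow range. The group means after amputation spanned less than 2-fold in 5 genes, LOC112575135, LOC112558176, LOC112564740, LOC112553356 and LOC112576825, and more than 20-fold in 33. LOC112575135 fell from 525, 486, 497 and 486 CPM in Intact to 87.4, 78.1, 76.9 and 88.7 CPM at 1dpa, and all 32 libraries after amputation lay between 64.4 and 115 CPM. From 1dpa to 21dpa its log2 fold change had a 95% interval from -0.02 to 0.29. LOC112564740 held 129, 90.2, 105 and 91.3 CPM in Intact, 4.96, 5.74, 5.03 and 4.48 CPM at 1dpa, 4.03, 5.10, 5.97 and 3.41 CPM at 21dpa and 5.29, 4.76, 4.80 and 6.69 CPM at 28dpa. Its interval from 1dpa to 21dpa ran from -0.51 to 0.35, although it rose from 9dpa to 12dpa by log2 0.60 ± 0.206 (SE; adjusted p = 0.0293, edgeR). LOC112558176 held 186 ± 31.4 CPM in the Intact libraries, and its means afterwards ranged from 27.3 to 40.8 CPM. LOC112575135, LOC112558176 and LOC112553356 were picked out after their values had been seen.

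At the other end, the largest net rises from 1dpa to 21dpa were those of LOC112560214, LOC112563139, LOC112564874 and LOC112564539. Without 1dpa replicate 2 the order changes, with log2 7.29 for LOC112576458 and 7.05 for LOC112571947 above 6.33 for LOC112564539. LOC112560214 held 863, 628, 669 and 584 CPM in Intact, 0.435, 4.61, 0.317 and 0.156 CPM at 1dpa and 0.771, 0.191, 0.966 and 0.523 CPM at 6dpa. It then stood at 6.97, 3.84, 7.16 and 3.97 CPM at 9dpa, 58.8, 47.2, 52.4 and 54.4 CPM at 12dpa and 195, 106, 126 and 192 CPM at 28dpa. Between 1dpa and 21dpa the log2 fold change was 5.88 ± 0.644 (SE; adjusted p = 2.47e-09, edgeR), and 8.04 without 1dpa replicate 2. LOC112564539 had a like course, from 131, 107, 122 and 93.7 CPM in Intact to 0.193, 0.305, 0.453 and 0.123 CPM at 6dpa and 19.1, 11.8, 11.6 and 15.4 CPM at 12dpa. Its step from 9dpa to 12dpa, log2 3.78 ± 0.346 (SE; adjusted p = 4.12e-09, edgeR), left no overlap between the groups.

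LOC112564874 was steady between libraries, at 26.5, 26.9, 28.2 and 26.2 CPM in Intact and 5.01, 4.76, 4.95 and 5.33 CPM at 28dpa. Its 6 counts at 1dpa all came from replicate 2, so its fold from 1dpa, log2 5.78 ± 0.541 (SE; adjusted p = 5.01e-11, edgeR), has no base without that library. From 9dpa to 12dpa it rose from 0.587, 0.301, 0.787 and 0.263 CPM to 5.45, 4.84, 4.84 and 4.30 CPM, log2 3.33 ± 0.396 (SE; adjusted p = 2.71e-07, edgeR), its highest level before 28dpa.

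The largest net falls from 1dpa to 21dpa were in LOC112573412, LOC112577004, LOC112557083 and LOC112572213. The first 3 belong to the 8 genes that amputation had not lowered below 25% by 1dpa. LOC112573412 was higher after the cut than before it, at 69.8, 11.9, 29.4 and 115 CPM at 1dpa against 5.43, 5.13, 6.19 and 3.99 CPM in Intact. It was at 3.78, 1.87, 3.45 and 5.48 CPM at 3dpa, a fall of log2 -3.91 ± 0.443 (SE; adjusted p = 8.91e-09, edgeR), and fell again between 12dpa and 15dpa, from 1.96, 2.05, 4.70 and 1.59 to 0.769, 0.764, 0.645 and 1.03 CPM. At 28dpa it held 0.849, 0.976, 0.924 and 1.40 CPM. LOC112577004 was at 148, 104, 118 and 88.0 CPM in Intact and 153, 115, 138 and 242 CPM at 1dpa, groups that overlap. It fell to 72.0, 37.2, 27.1 and 36.6 CPM at 3dpa and 17.0, 13.0, 14.3 and 12.7 CPM at 6dpa, both called steps, log2 -1.86 ± 0.225 (SE; adjusted p = 3.01e-08, edgeR) and -1.62 ± 0.228 (SE; adjusted p = 2.15e-06, edgeR). It was still at 14.3, 12.3, 9.31 and 10.3 CPM at 28dpa. This gene thus fell when most of the set was already low.

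LOC112557083 was uneven in Intact, at 4.50, 1.44, 1.84 and 13.4 CPM, so its place in the set rests on 1 high Intact library. Its 3dpa libraries, at 8.99, 7.70, 6.87 and 7.47 CPM, were all above its 6dpa libraries, at 0.578, 1.298, 1.03 and 1.75 CPM, a fall of log2 -2.76 ± 0.651 (SE; adjusted p = 0.00163, edgeR). LOC112572213 was low from the start, at 8.96 ± 4.46 CPM at 1dpa against 38.8 ± 7.92 in the Intact libraries, and fell further to 0.911 ± 0.217 at 3dpa, log2 -3.24 ± 0.340 (SE; adjusted p = 1.76e-09, edgeR). At 28dpa it held 4.65, 2.60, 3.18 and 6.05 CPM.

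Of the other 5 genes above 25% of Intact at 1dpa, LOC112557576 had the most reads and lay just past the line, at 26.8%. It was at 578, 534, 584 and 558 CPM in the Intact libraries, 156, 127, 163 and 159 CPM at 1dpa and 70.6, 67.8, 63.0 and 85.2 CPM at 3dpa, a further fall of log2 -1.02 ± 0.174 (SE; adjusted p = 9.07e-06, edgeR). LOC112560132 declined slowly up to 21dpa, from 94.0 ± 18.0 CPM in the Intact libraries to 54.4 ± 9.65 at 1dpa, then 35.3 ± 3.51 at 6dpa, next 26.3 ± 2.28 at 12dpa and 17.1 ± 1.09 at 21dpa (SD, n = 4). Called falls came from 3dpa to 6dpa, from 6dpa to 9dpa and from 15dpa to 21dpa, the last of log2 -0.42 ± 0.135 (SE; adjusted p = 0.0404, edgeR). LOC112569123 had 6.62, 4.61, 3.44 and 6.35 CPM at 1dpa and 1.04, 0.572, 1.24 and 1.16 CPM at 3dpa, a fall of log2 -2.32 ± 0.623 (SE; adjusted p = 0.00205, edgeR). Later its libraries were uneven, at 6.13, 3.51, 0.651 and 1.77 CPM at 21dpa and 6.95, 0.773, 2.25 and 1.16 CPM at 28dpa. Its lowest Intact library held 9.15 CPM, so 1 library at 28dpa came near the Intact range. LOC112567789 and LOC112557398 also varied widely between libraries of a group, and the net change from 1dpa to 21dpa was not called in either (adjusted p = 0.778 and 0.911, edgeR).

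**Figure D4:**
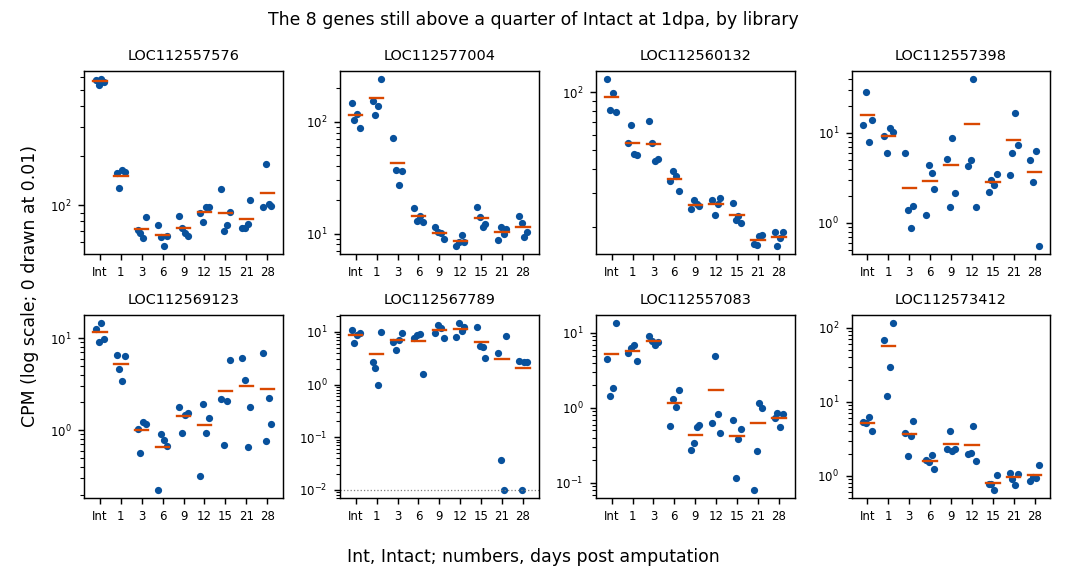
CPM on a log axis in each library (points) with group means (bars) for the 8 genes whose 1dpa mean was above 25% of Intact; a count of 0 is drawn at 0.01 CPM. LOC112577004 and LOC112573412 are as high or higher at 1dpa than in Intact and fall by 6dpa, and LOC112560132 declines step by step to 21dpa.

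The 4 genes that passed 25% of Intact in between were LOC112576825, LOC112558395, LOC112557524 and LOC112572886. LOC112576825 was highest at 6dpa, with 49.9, 51.1, 43.5 and 55.8 CPM against 159, 152, 188 and 120.3 CPM in the Intact libraries, and fell to 31.5, 29.8, 28.8 and 30.8 CPM at 9dpa, log2 -0.72 ± 0.167 (SE; adjusted p = 0.00285, edgeR). LOC112558395 was highest at 21dpa, with 27.4, 24.7, 14.7 and 16.4 CPM, 31.1% of its Intact mean, and held 17.3, 17.8, 12.7 and 13.4 CPM at 28dpa. LOC112557524 rose to 8.46, 10.5, 12.8 and 7.78 CPM at 12dpa and had gone back to 5.80, 4.24, 4.48 and 4.31 CPM at 15dpa, log2 -1.07 ± 0.213 (SE; adjusted p = 0.000425, edgeR), from 34.0 ± 3.51 CPM in the Intact libraries. LOC112572886 held 2.39, 4.07, 1.61 and 2.82 CPM at 9dpa and 0.190, 0, 0.285 and 0.199 CPM at 12dpa, where no other member was called lower, and 2.66, 1.13, 2.03 and 0.944 CPM at 21dpa.

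Between 21dpa and 28dpa the mean of 72 of the 81 genes was higher at the later time and that of 9 was lower, with a median ratio of 1.41. In 33 genes every 28dpa library was above every 21dpa library, and in none was every one below. These counts were not made over all genes, so whether they are unusual for this step is not known. The choice of genes limited their 28dpa level from above, so this is a description without a test. In 46 genes 28dpa was the highest of the 8 groups after amputation, and in 13 it was 15dpa. The lowest group was 1dpa in 23 genes, 3dpa in 24 and 6dpa in 22.

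Some of the 81 genes neighbour each other in the order of genes along the assembly ASM307304v1. LOC112577450, LOC112553151, LOC112577451 and LOC112553459 follow each other without a gene between them, and LOC112577004 comes 2 genes later. LOC112556991 and LOC112557005 are also adjacent, and LOC112558050 and LOC112555382 are separated by 1 gene. The run of 4 had similar courses, but how alike the courses of genes that are not adjacent were was not counted. In Intact it held 45.6 ± 11.3 CPM in sum (SD, n = 4), at 6dpa 0.219 ± 0.190 from 28 counts in 4 libraries, at 12dpa 3.81 ± 1.13 and at 28dpa 8.43 ± 1.51. As percent of Intact the 4 genes lay between 1.88 and 2.72% at 9dpa, between 7.11 and 9.10% at 12dpa, between 7.71 and 10.8% at 21dpa and between 16.5 and 20.5% at 28dpa. The medians of the whole set at these times were 4.30, 8.80, 11.2 and 17.8%, so from 12dpa on the run lay near the rest of the set. At 28dpa the choice of genes also capped each gene at 25%. Adjacent genes can be near-identical copies that share reads, and how far these 4 were counted apart was not tested.

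LOC112577004, on the far side of 2 genes of under 3 CPM in Intact, did not follow the run, as it was still at 141% of Intact at 1dpa where the 4 were at 0.307 to 1.29%. In the pair LOC112556991 and LOC112557005, both genes rose from 9dpa to 12dpa, by log2 2.03 ± 0.220 (SE; adjusted p = 6.55e-08, edgeR) and 1.46 ± 0.273 (SE; adjusted p = 0.000165, edgeR). LOC112556991 held 463, 415, 439 and 373 CPM in Intact, 2.44, 3.74, 2.72 and 3.08 CPM at 6dpa and 90.5, 57.4, 64.3 and 68.7 CPM at 28dpa, and LOC112557005 46.5, 41.9, 44.3 and 36.5, then 0.482, 0.725, 0.694 and 0.431, then 6.63, 4.19, 4.29 and 5.41 CPM. The gene next to each on the outer side, LOC112556993 and LOC112557011, stood at 118 and 102% of Intact at 28dpa.

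LOC112558050 and LOC112555382 began to return earlier than most. LOC112558050 held 107, 91.1, 101 and 83.9 CPM in Intact and 1.35, 0.930, 0.453 and 0.364 CPM at 1dpa. It rose in each of the 4 steps up to 12dpa, the first of log2 1.43 ± 0.262 (SE; adjusted p = 2.42e-05, edgeR), and reached 17.8, 12.3, 18.9 and 18.4 CPM. LOC112555382 rose in the same 4 steps, the first of log2 1.42 ± 0.374 (SE; adjusted p = 0.00169, edgeR), from 0.0870, 0.566, 0.408 and 0.208 to 0.887, 0.915, 0.749 and 0.822 CPM. Neither had a called rise after 12dpa, LOC112558050 was called lower at 21dpa than at 12dpa, and at 28dpa they stood at 17.4 and 18.7% of Intact. The gene between them, LOC112558051, had a mean of 11.6 CPM before amputation and of 10.2 CPM at 28dpa.

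**Figure D5:**
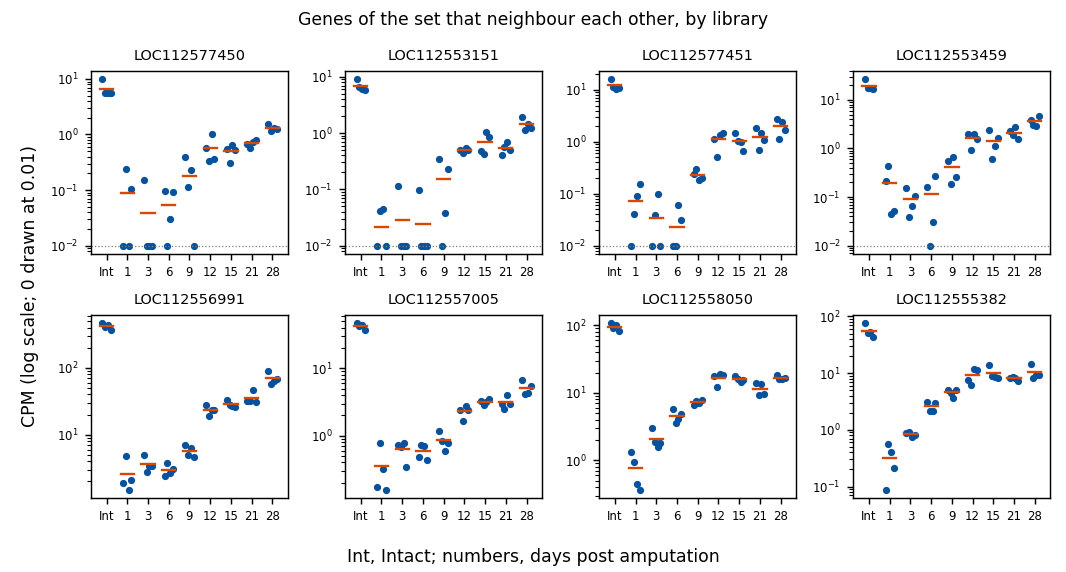
CPM on a log axis in each library (points) with group means (bars) for 8 genes of the set that lie next to or 1 gene away from another; a count of 0 is drawn at 0.01 CPM. The upper row is the run of 4 adjacent genes, each lowest from 1dpa to 6dpa and level from 12dpa to 21dpa, and the lower row holds the 2 pairs.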

How the data were processed

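The deposited values are raw gene-level counts for 36 libraries. Per the submitters' processing notes, STAR was used. Its version, the strand setting, the annotation and the build are not given in the sources used. All 21131 identifiers matched symbols in a RefSeq table (assembly ASM307304v1), which gives no product names and was used for which genes neighbour each other. The planned product-name lists, protein features and promoter motifs were therefore not analysed here. The tools were edgeR 4.0.16 and R 4.3.3. CPM for the choice of genes used TMM factors over 19622 genes with summed counts of at least 10. For the tests, filterByExpr left 17341 genes, all 81 of the set among them; 1 model with a mean per group (estimateDisp, glmQLFit, robust) was fitted to all 36 libraries, and p-values were adjusted over all tested genes, with a threshold of 0.05. Standard errors come from the F statistic. Members and lists were chosen with earlier results of these data known.

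Named genes were the 8 of highest Intact mean, the 6 lowest at 28dpa against Intact, the 4 largest net rises and falls from 1dpa to 21dpa, the 2 of highest Intact mean in each course, and neighbours; other genes named were chosen after their values were seen. Alternatives were RLE factors, library size alone, other filters and folds, DESeq2 1.42.0, fits to single pairs, a replicate block and each library left out. No 2 libraries of a group agreed within sampling noise (lowest chi-square per degree of freedom 9.78 in 54 pairs). The fit was tested on simulated data. Intervals and counts of 0 cover the spread of these libraries and counting error only.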

Additional observations from a re-analysis of the deposited data

Results flagged for a closer look

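In 81 groups of 4 libraries, those of the summed level and of the 8 genes with the most reads, 10 had 1 library whose gap to the nearest other exceeded Dixon's 95% critical value for 4 libraries, as a share of the group's range. Chance gives about 1 in 20. In 1dpa replicate 2 LOC112576458 was at 59.8 CPM against 0.312 to 2.22 CPM in the other 3, LOC112563139 at 29.1 CPM against 1.98 to 4.57 CPM in the other 3, LOC112571947 at 24.9 CPM against 1.197 to 3.70 CPM in the other 3, and LOC112560377 at 18.3 CPM against 13.5 to 14.3 CPM in the other 3. In 3dpa replicate 1 LOC112576458 was at 37.3 CPM against 0.274 to 0.648 CPM in the other 3, LOC112563139 at 23.3 CPM against 1.27 to 1.82 CPM in the other 3, and LOC112571947 at 20.2 CPM against 1.72 to 1.95 CPM in the other 3. These 7 values come from the pair of libraries that also held more of many other genes of the set. LOC112576458 was also high in 15dpa replicate 1, at 693 CPM against 439 to 477 CPM in the other 3, and LOC112559820 in 6dpa replicate 3, at 40.8 CPM against 32.7 to 33.2 CPM in the other 3. The summed level of the 81 genes was low in 12dpa replicate 2, at 2071 CPM against 2699 to 2781 CPM in the other 3.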

How the results depend on the processing

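Each count and median was recomputed under the other settings, and 389 of 410 recomputed values stayed within the limits set for a change. Those limits were wide for counts, as a change from 81 to 106 genes lay within them. The number of genes that meet the rule was 171 with a fold threshold of 3 and 20 with one of 8, and 106 with library size alone as the scaling; leaving out 1 Intact or 28dpa library gave 79 to 101, at least 74 of them among the 81. The single gene lower at 12dpa than at 9dpa became 2 with RLE factors, a filter of 1 CPM, DESeq2 or a fit to the 8 libraries of the pair, and 3 with library size alone, and was 1 to 2 with 1 library left out. Genes lower at 3dpa than at 1dpa were 13 in place of 20 when only that pair was fitted. With 1 library left out, falls from 12dpa to 15dpa numbered 6 to 9, falls from 12dpa to 21dpa 4 to 10, and rises from 15dpa to 21dpa 3 to 6. The median level at 6dpa was 2.60% with RLE factors and 2.56 to 2.77% with 1 Intact library left out, and that at 12dpa 8.33 to 9.68%. The cause was not tested in any of these. For the 31 named genes only the fold change from 1dpa to 21dpa was recomputed, and their single steps were not. Of 372 such values, none changed direction, 6 lost a call and 2 gained one.

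Over the tested genes no pairing of libraries by replicate number was seen, which does not exclude one. Within the set, replicate 1 was highest for more genes than any other library in Intact and at 3, 9, 15, 21 and 28dpa. At 1, 6 and 12dpa another replicate was. Deviations from the group mean correlated at a median of -0.01 between libraries of equal number and 0.00 between others, and 5 of 36 libraries correlated best with their own number. With the replicate number as a block, 61 genes rose and 7 fell from 1dpa to 21dpa, in place of 62 and 7, 38 in place of 40 rose to 9dpa and 44 in place of 45 to 12dpa. Depth limits the genes of few CPM, since 5 of the 81 had fewer than 4 counts over some group of 4 libraries.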

Other observations

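LOC112567789 was close to absent in single libraries at the end of the course. It held 8.08, 14.5, 10.4 and 12.3 CPM in 12dpa replicates 1 to 4, 3.99, 0.0377, 0 and 8.46 CPM at 21dpa and 2.83, 0, 2.66 and 2.64 CPM at 28dpa, while its Intact libraries held 10.6, 6.24, 8.91 and 9.49 CPM. LOC112557398 was uneven in the other direction, with 4.31, 4.93, 39.6 and 1.49 CPM at 12dpa, 3.43, 6.04, 16.5 and 7.27 CPM at 21dpa and 12.2, 28.5, 7.81 and 13.9 CPM in Intact. Both belong to the genes above 25% of Intact at 1dpa, and both were chosen here after their values had been seen.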
